A study of Nothobranchius furzeri with 20 samples.

Results

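A set of 84 genes, of 26739 gene identifiers counted, reached very high levels in 1 brain library at 5 weeks and 1 at 7 weeks of age in the turquoise killifish. Levels are given as CPM, the reads of a gene scaled to a library of 1000000 counted reads. The 84 genes were chosen by these levels. Each had a mean of at least 0.5 CPM over all libraries, and its CPM plus 0.1 was over 8-fold above the median of the other 4 libraries of the age, both in 5-week replicate 4 and in 7-week replicate 2. Of the 19159 genes with that mean, 232 (1.21%) passed in the 5-week library, 93 (0.485%) in the 7-week library and 84 (0.438%) in both. The 84 genes were thus 36.2% of the first list and 90.3% of the second. These counts follow from the choice and carry no test.

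The study sequenced brain RNA of male fish (Nothobranchius furzeri, strain GRZ) at 4 ages, with 5 libraries each at 5, 7, 10 and 14 weeks. Age is the only difference the labels name, and they give no treatment or genetic change for any group. Whether a library holds 1 brain or several is not stated, so p-values measure only the spread between these samples. The turquoise killifish hatches, matures and dies within a single short season in nature. GRZ is an inbred laboratory strain known for a very short life, and its brain is used as a model of vertebrate ageing. In whole-brain RNA, a gene's level is the sum over all cells in the piece taken, so more cells of a type and more RNA per cell cannot be told apart.

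No role can be given to the 84 genes. The files list identifiers without names, and looking them up in the RefSeq gene table gave 0 matches, so the genes carry no symbol, position or sequence here. For the same reason brain markers and markers of neighbouring tissues could not be read, and the part of other tissues in these levels was not tested. Library totals ran from 12.004 M (M, mega) to 30.7 M counts, with 27.1 M in 5-week replicate 4 and 25.104 M in 7-week replicate 2. The lowest total belonged to 5-week replicate 5. The median Spearman correlation of a library with the others was 0.976 in 5-week replicate 4 and 0.985 in 7-week replicate 2. It was lower still in 7-week replicate 3 (0.965) and in 5-week replicate 5 (0.972), and 0.983 or more in the others.

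The level of the 84 genes together was followed as the geometric mean of CPM plus 0.1. In the 5-week replicates 1 to 5 it came to 0.930, 1.04, 1.70, 81.4 and 7.03 CPM. The 7-week replicates had 1.67, 35.5, 1.53, 2.20 and 1.54 CPM. The chosen library of each age thus stood far above its group, and 5-week replicate 5 came next after them among all 20. At 10 weeks it was 1.89, 2.04, 1.84, 2.35 and 2.03 CPM, and at 14 weeks it was 1.31, 3.01, 0.963, 1.104 and 1.93 CPM. The highest 10-week library was 1.28 times the lowest, and the highest 14-week library 3.12 times the lowest. Apart from the chosen library, the 7-week libraries spanned 1.44-fold and the 5-week libraries 7.56-fold.

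**Figure D1:**
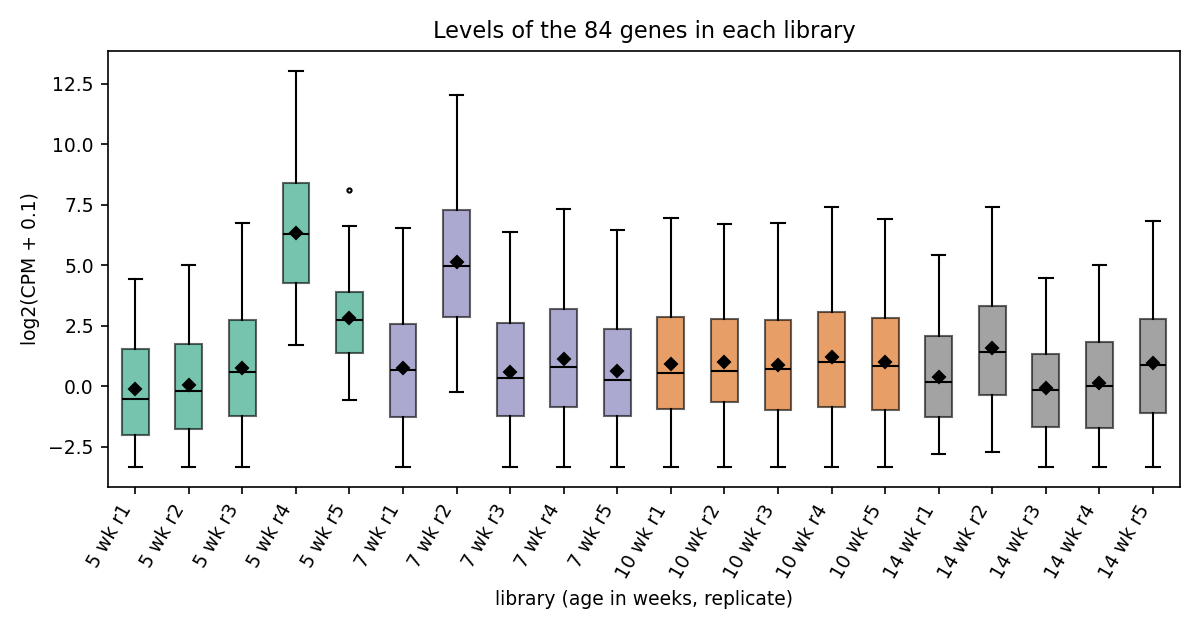
Box plots of log2(CPM + 0.1) of the 84 genes in each of the 20 libraries (boxes, quartiles; whiskers, up to 1.5 box lengths; diamonds, geometric means), coloured by age. 5-week replicate 4 and 7-week replicate 2 lie far above the rest, with geometric means of 81.4 and 35.5 CPM, and 5-week replicate 5 follows at 7.03 CPM.

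The genes took 3.44% of all counts in 5-week replicate 4 (Wilson 95% interval 3.44 to 3.45%) and 1.68% in 7-week replicate 2 (1.68 to 1.69%). They took 0.155% in 5-week replicate 5 (0.153 to 0.158%) and 0.0201 to 0.0954% in the other 17 libraries. These intervals cover counting error only. In 5-week replicate 4, 9 of the 84 genes were among the 100 most abundant genes of the library, and in 7-week replicate 2 there were 5. In each of the other 18 libraries there were 0. Every one of the 84 genes had reads in the chosen libraries, and 0 to 5 of them had no read in each of the others. In 78 of the 84 genes both chosen libraries exceeded all 18 others. In the remaining 6 genes, 5-week replicate 5 exceeded the lower of the chosen libraries, at 1.58 to 4.66 CPM. In 1 of these 6 it exceeded both, at 4.66 against 4.13 and 3.70 CPM. In another, 14-week replicate 1 also exceeded the lower chosen library, at 3.22 against 3.17 CPM. In yet another, 5-week replicate 3 did, at 0.759 against 0.757 CPM. The 84 genes were chosen for high values in both libraries, so the counts in this paragraph largely follow from the choice. No share over the 19159 genes was taken for the 78.

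In 5-week replicate 4 the ratio to the other libraries of its age ran from 8.64 to 277, with a median of 60.3 and quartiles of 37.0 and 87.8. In 7-week replicate 2 it ran from 8.25 to 110, with a median of 20.4 and quartiles of 12.01 and 31.3. The 7-week values lay closer to the limit of 8 than the 5-week values. Ratios over 16-fold were held by 76 genes in the 5-week library, 49 in the 7-week library and 47 in both, and ratios over 64-fold by 41, 6 and 3. The 2 genes just inside the limit had 7-week ratios of 8.25 and 8.47, from 93 and 47 reads. The 2 just outside had 7.94 and 7.93, from 166 and 45 reads, with 5-week ratios of 67.1 and 43.7.

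**Figure D2:**
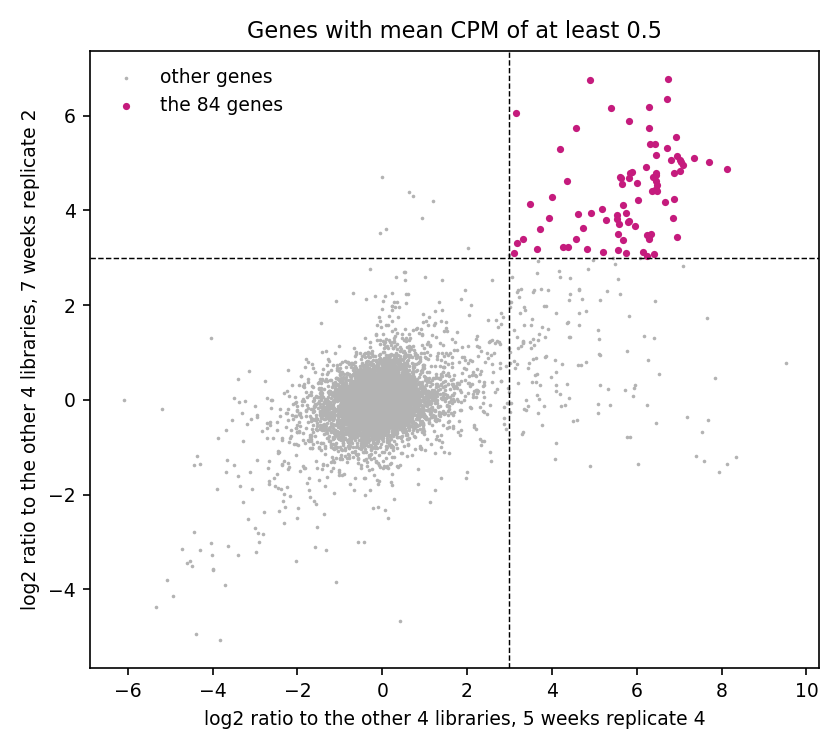
Log2 ratio of CPM + 0.1 to the median of the other 4 libraries of the same age, in 5-week replicate 4 (x axis) and 7-week replicate 2 (y axis), for the 19159 genes that reach a mean of 0.5 CPM. Dashed lines mark 8-fold; the 84 genes fill the upper right corner, 148 genes pass in the 5-week library alone and 9 in the 7-week library alone.

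The genes past the limit in 1 library only behaved differently in the other. The 148 genes high only in 5-week replicate 4 had a median ratio of 1.92 in 7-week replicate 2 (quartiles 1.07 and 3.61). The 9 genes high only in 7-week replicate 2 had a median ratio of 1.65 in 5-week replicate 4, with a range of 0.965 to 7.92. Both lists were cut from the same values, so these medians only describe the choice.

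The 84 genes covered a wide range of levels. In 5-week replicate 4, 8 genes lay at 1000 CPM or more, 26 between 100 and 1000, 38 between 10 and 100, and 12 below 10. The lowest had 86 reads there and the median 2108. In 7-week replicate 2 the reads ran from 19 to 106358, with a median of 791. The 10 highest genes carried 71.1% of the set's counts in the 5-week library and 69.8% in the 7-week library.

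The most abundant of the 84 genes was the same in each of the 20 libraries. It stood at 21.9, 32.4, 107, 8487 and 279 CPM in the 5-week replicates 1 to 5, and in those of 7 weeks at 94.6, 4237, 83.6, 160.2 and 87.3 CPM. In both chosen libraries it was the second most abundant of all genes. At 10 weeks it was at 124, 105, 107, 169 and 120.0 CPM, and at 14 weeks at 43.5, 171, 22.0, 32.3 and 116 CPM. Its rank among all genes in the libraries outside the chosen pair ran from 498 to 8702. Among the 14-week libraries it was highest in replicate 2, then in replicate 5, and lowest in replicate 3.

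The sizes in the chosen libraries differed from gene to gene. In 74 genes the 5-week library was higher than the 7-week library and in 10 it was lower. The median ratio of the 5-week to the 7-week library was 2.49, with quartiles of 1.43 and 4.25 and a range of 0.137 to 12.2. Over 4-fold differences were held by 22 genes toward the 5-week library and by 2 toward the 7-week library. Across the 84 genes, the log2 ratios of both libraries correlated with r = 0.31 (Pearson) and rho = 0.41 (Spearman). This is a description across genes, which are not independent replicates, and both ratios were cut at the same limit.

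Another young library held the genes at a raised level. In 5-week replicate 5 all 84 genes were above each of replicates 1, 2 and 3. No share over the 19159 genes was taken for this count, but this library was the highest of its age in 46.0% of the 19159. Here 77 of the 84 genes were over 2-fold above the median of the other 4 libraries, which includes replicate 4, and 15 over 8-fold. All 84 were above that median, with a median ratio of 4.25 (quartiles 3.16 and 6.02). The 148 genes high only in 5-week replicate 4 had a median ratio of 3.62 in 5-week replicate 5 (quartiles 2.36 and 6.29). The raised level there was thus not particular to the 84. This library was high in many genes: of the 19159 genes, 66.4% were above the median of the other 4, 12.7% over 2-fold and 1.06% over 8-fold. The median ratio over the 19159 genes was 1.15 in this library. Such a shift of the whole library remains in CPM and adds to these shares. This library was also the least deeply sequenced and had the most genes with a read, 22938 against 21385 to 21862 in the other 19. Its values entered the medians that chose the genes, so they are no separate support.

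The 10- and 14-week libraries took no part in the choice, apart from the minimum mean, which is why they are looked at more closely. In 14-week replicate 2, 80 of the 84 genes were above the median of the other 4 libraries of that age, against 51.9% of the 19159 genes. There 48 genes were over 2-fold above it, against 2.4% of the 19159, and 1 was over 8-fold, against 0.157%. The median ratio of the 84 genes was 2.18, with a range of 0.856 to 8.65. The 148 genes high only in 5-week replicate 4 had a median ratio of 1.22 in the same library (quartiles 1 and 1.59). A ratio of 1 also arises where a gene has no reads in the libraries compared, and the 148 were not matched to the 84 for level. Over the 10- and 14-week libraries, the mean level of the 84 genes had a median of 1.41 CPM (quartiles 0.410 and 5.69). The 19159 genes were not matched to them for level, here or below, and ratios vary more at low counts. Of the 84 genes, 44 had at least 10 reads in every library of 10 and 14 weeks. Among these 44, 42 were above the median in 14-week replicate 2 and 29 over 2-fold above it. No background share was taken at the level of the 44. How far the 84 genes vary together was not measured. Genes read in the same libraries do not add up as independent observations.

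The other 14-week libraries were also ordered by these genes. Replicate 5 was above the median of the other 4 in 66 of the 84 genes (52.3% of the 19159) and over 2-fold above it in 23 (0.532%). Replicates 1, 3 and 4 were below it in 62, 73 and 68 genes, against 53.0%, 49.3% and 52.6% of the 19159. Replicate 2 was the highest 14-week library in 63 genes (22.5% of the 19159), and replicate 3 the lowest in 44 (16.9%). Most of the 84 genes thus lay on the same side of the median in each of these libraries. Each library is set against the other 4, so high values in replicates 2 and 5 place other replicates below their medians. The counts of these libraries are therefore not separate signs of the genes moving together. The median SD of the 84 genes among the 14-week libraries was 0.71 on the log2 scale (n = 5), against 0.22 over the 19159. Low counts by themselves widen this SD, and how much of the difference they account for was not tested.

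At 10 weeks the libraries lay closer. Replicate 4 was above the median of the other 4 in 57 of the 84 genes (43.6% of the 19159), over 2-fold above it in 4 (0.992%) and the highest library in 37 (17.2%). The median SD of the 84 genes on the log2 scale was 0.35 (n = 5) at 10 weeks, against 0.19 over the 19159. Over the 59 genes counted well enough to be tested, the median SD was 0.33 at 10 weeks and 0.73 at 14 weeks, against 0.18 and 0.22 over all 19034 genes tested. These 19034 genes were not matched for level either.

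**Figure D3:**
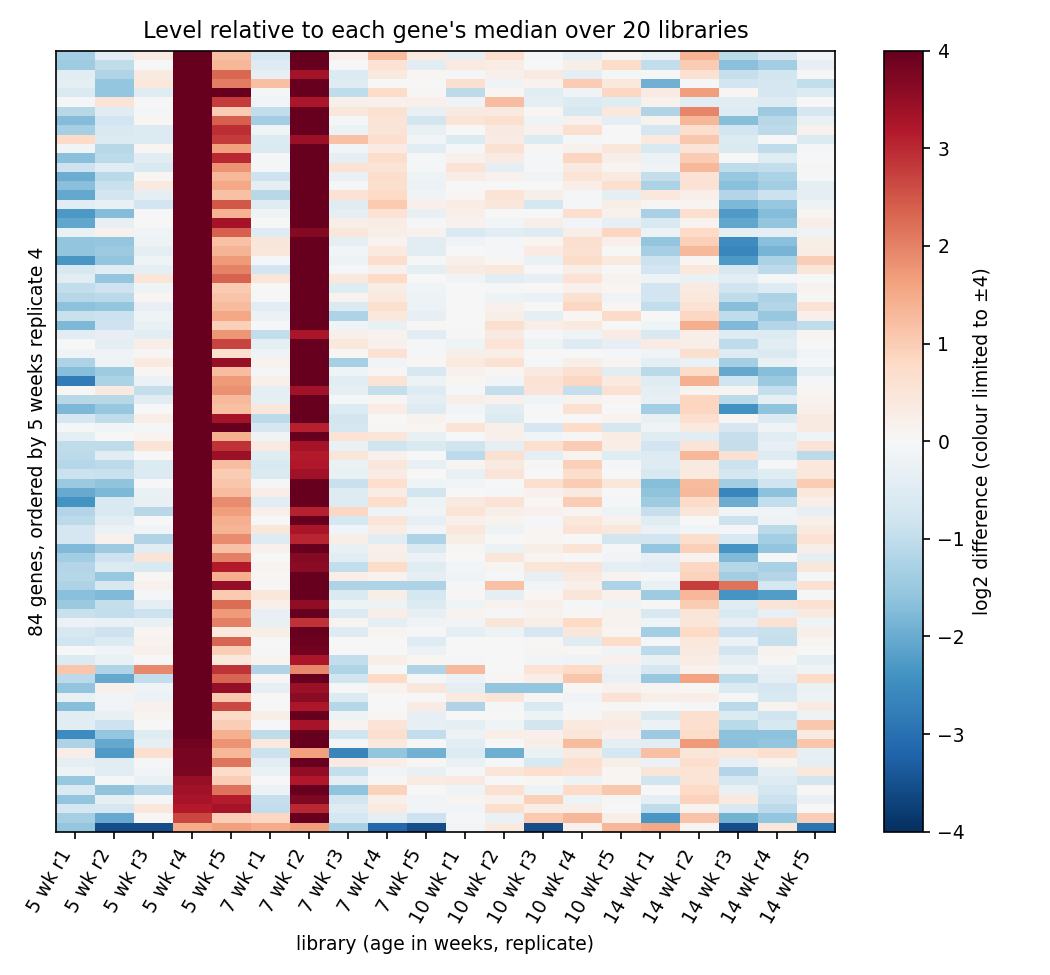
Log2(CPM + 0.1) of each of the 84 genes (rows, ordered by 5-week replicate 4) minus its median over the 20 libraries (columns), with the colour limited to 4 in each direction. The 2 chosen columns are dark red in most rows and paler in a few, and 5-week replicate 5 is mostly paler red. 5-week replicates 1 and 2 and 14-week replicates 3 and 4 are mostly blue, and 14-week replicate 2 is mostly red.

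The genes with the larger ratios in 7-week replicate 2 also tended to have the larger ratios in 14-week replicate 2. Across the 84 genes the Pearson r of the log2 ratios was 0.63 and the Spearman rho 0.64. For 5-week replicate 4 against 14-week replicate 2, r was 0.31 and rho 0.40. Over the 59 genes tested, rho was 0.69 with the 7-week library and 0.35 with the 5-week library. For 14-week replicate 5, rho over the 84 genes was 0.41 with the 7-week library and 0.23 with the 5-week library. For 10-week replicate 4 it was 0.15 and -0.09. The ratios compared share no library, but genes are not independent replicates, and these values are descriptions. The 0.1 added to each CPM shrinks the ratios of genes with low levels in every library. How much of these correlations comes from level was not tested. The 10 genes that were higher in 7-week replicate 2 than in 5-week replicate 4 had a median ratio of 3.21 in 14-week replicate 2, and the other 74 had 2.16.

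**Figure D4:**
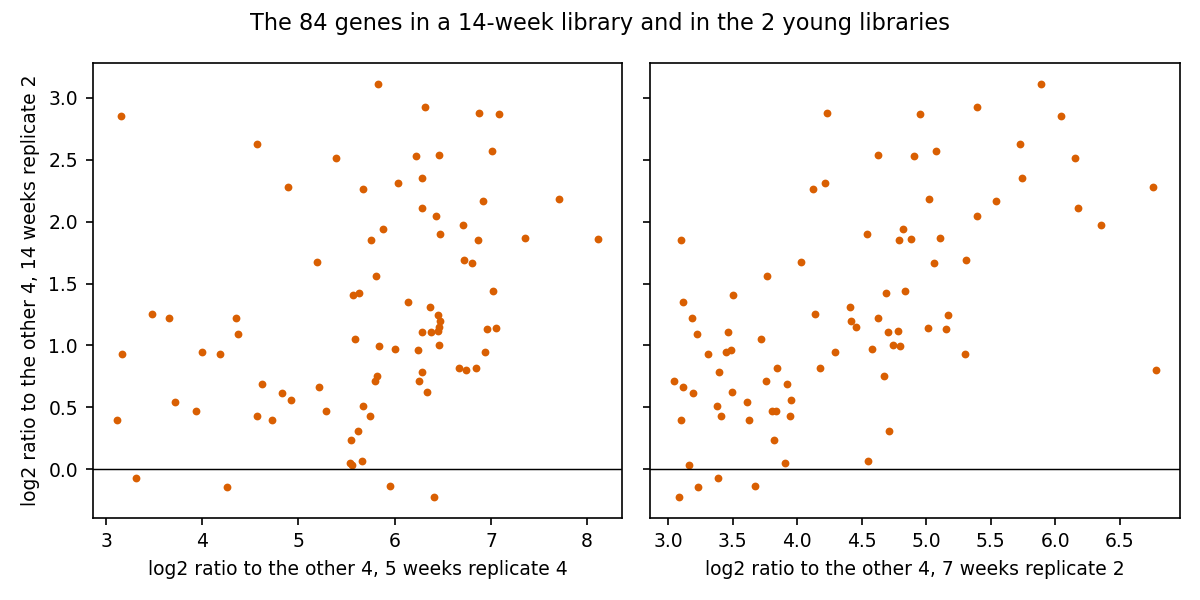
Log2 ratio to the other 4 libraries of the same age in 14-week replicate 2 (y axis) against that in 5-week replicate 4 (left) and 7-week replicate 2 (right), 1 point for each of the 84 genes. Nearly all points lie above 0 on the y axis (80 of 84), and the points rise more evenly against the 7-week library (Spearman rho 0.64) than against the 5-week library (0.40).

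Between 10 and 14 weeks, none of the 59 genes of the set that could be tested was called changed. The 10 libraries of these ages were fitted alone with edgeR's quasi-likelihood test, so that the surge in the young libraries did not enter the spread, and p-values were adjusted over all 19034 genes tested. Of the 84 genes, 59 had enough reads in these 10 libraries to be tested. The other 25 had a mean of at most 0.468 CPM there. Of the 59, 0 were called higher (background 0.341% of genes tested) and 0 lower (0.0368%) at 14 weeks, at an adjusted p below 0.05. With background shares this small, 0 calls among 59 genes do not set them apart from the other genes. At an unadjusted p below 0.05 by edgeR there were 4 lower and 1 higher of the 59, against 810 lower and 1147 higher of the 19034. So few genes do not set the 59 apart either. The smallest adjusted p was 0.16. With all 20 libraries in the fit, 0 of the members tested were called higher (background 0.0976%) and 0 lower (0.0%). That fit lets the surge that chose the genes into their spread, so its lack of calls is no separate result.

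Most of the 59 leaned toward lower values at 14 weeks without passing the test. The log2 fold change was negative in 53 and positive in 6, with a median of -0.37, against a median of 0.01 and 47.9% negative over all genes tested. The genes were read in the same libraries and are not independent, and the median depended on single libraries. It was -0.61 without 14-week replicate 2 and -0.23 without 14-week replicate 3. The 14-week libraries lay fully below the 10-week libraries in 1 of the 59 genes (0.967% of all tested) and fully above in 0 (1.61%). DESeq2, on the same genes and libraries, called 1 of the 59 lower (background 0.573%) and 0 higher (1.23%).

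Only 4 of the genes are shown by identifier. Nfu_g_1_010210 and Nfu_g_1_021892 had the largest values of the smaller of the pair of ratios, and Nfu_g_1_006411 and Nfu_g_1_013837 had the smallest p among the remaining genes that were lower at 14 than at 10 weeks. Nfu_g_1_010210, a gene model of 3127 bases, was at 0.446, 0.145, 0.867, 80.9 and 2.83 CPM at 5 weeks. The 7-week values were 1.53, 78.4, 0.416, 0.618 and 0.611 CPM. It reached nearly the same level in both chosen libraries, from 2192 and 1967 reads. With 0.1 added to each CPM, its ratios to the median of the others were 107 and 109.8. At 10 weeks it was at 1.02, 0.548, 0.692, 1.34 and 0.855 CPM, and at 14 weeks at 0.0895, 0.577, 0.317, 0.346 and 0.258 CPM. The 10- and 14-week groups overlapped in 1 library of each. From 10 to 14 weeks its log2 fold change came to -1.51 ± 0.39 (SE; adjusted p = 0.17 by edgeR), on 2 to 32 reads per library.

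Nfu_g_1_021892, of 2229 bases, was at 0.0495, 0.193, 0.434, 43.3 and 2.50 CPM at 5 weeks. At 7 weeks it was at 0.0926, 31.5, 0.370, 0.618 and 0.204 CPM. With 0.1 added to each CPM, its ratio to the median of the others was 105 in the 5-week library and 81.6 in the 7-week library. At 10 weeks it was at 0.636, 0.675, 0.346, 0.461 and 0.285 CPM, and at 14 weeks at 0.447, 1.15, 0.0528, 0.130 and 0.310 CPM. The 10- and 14-week groups overlapped, and 14-week replicate 2 was the highest of these 10. This gene had too few reads to be tested between 14 and 10 weeks.

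Nfu_g_1_006411, of 1748 bases, had the most reads of the 4. It was at 4.80, 6.31, 6.88, 312 and 17.2 CPM at 5 weeks and at 5.79, 112, 9.34, 9.02 and 5.12 CPM at 7 weeks. At 10 weeks it was at 6.40, 7.34, 5.83, 6.54 and 7.89 CPM, a mean of 6.80 ± 0.814 (SD, n = 5). At 14 weeks it was at 4.47, 4.77, 3.32, 4.72 and 5.68 CPM, a mean of 4.59 ± 0.846 (SD, n = 5). Every 14-week library lay below every 10-week library, and this was the 1 gene of the 59 that did so (0.967% of all genes tested). The gene was picked for its small p among those lower at 14 weeks, which favours such a gap. Its log2 fold change was -0.58 ± 0.15 (SE), with an adjusted p of 0.16 by edgeR and 0.022 by DESeq2, so the call depended on the tool. Its ratio in 14-week replicate 2 was 1.04, below the median of 2.18 of the 84 genes.

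Nfu_g_1_013837, of 3872 bases, was at 0.347, 0.819, 1.30, 58.7 and 11.7 CPM at 5 weeks and at 1.07, 24.1, 0.324, 0.879 and 0.984 CPM at 7 weeks. Its ratio in 5-week replicate 5 was 10.1, larger than the median of 4.25 for the 84 genes. At 10 weeks it was at 1.27, 1.52, 0.923, 1.13 and 1.05 CPM, and at 14 weeks at 0.716, 0.786, 0.317, 0.779 and 0.930 CPM. The groups overlapped narrowly. Its log2 fold change was -0.75 ± 0.26 (SE; adjusted p = 0.32 by edgeR).

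**Figure D5:**
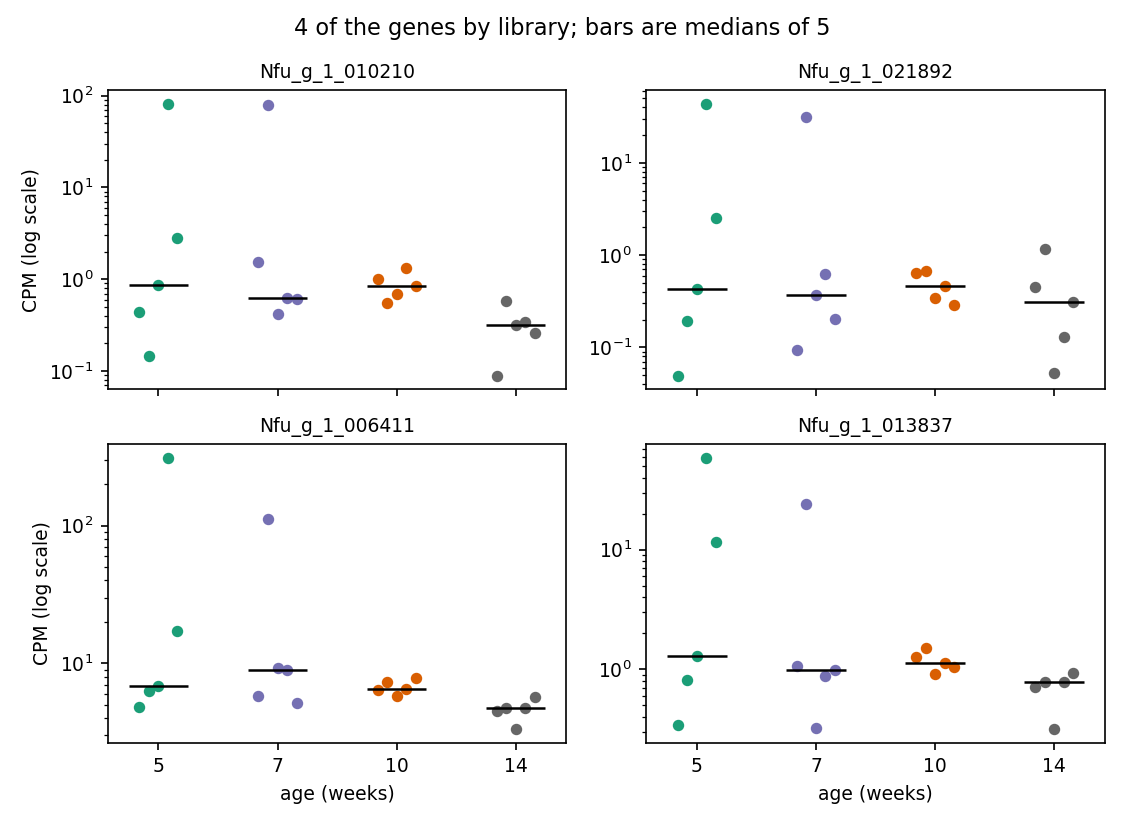
CPM on a log scale of 4 of the 84 genes in each library (points, in the order of the replicates) by age in weeks, with the median of each 5 as a bar. In each panel 1 point at 5 weeks and 1 at 7 weeks stand far above the rest. The 10- and 14-week points lie within the range of the other young libraries or below it.

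The gene models of the 84 genes spanned nearly the whole range of lengths. Lengths solved from the deposited RPKM values were found for 83 of them, with a median of 2463 bases and quartiles of 1214 and 4534. Over the 18162 genes with a length and a mean of at least 0.5 CPM, the median was 2616 and the quartiles 1295 and 4651. The lengths of the 83 ran from 228 to 88545 bases, and the longest was also the longest of those 18162 gene models. That gene was at 1050.0 CPM in 5-week replicate 4 and 299 CPM in 7-week replicate 2, and at 4.70 to 94.8 CPM in the other 18 libraries. Per 1000 bases of length, the median level of the 83 genes was 25.8 CPM in 5-week replicate 4 and 10.2 CPM in 7-week replicate 2. It was 1.83 CPM per 1000 bases in 5-week replicate 5, 0.836 in 14-week replicate 2 and 0.257 to 0.623 in the other 16 libraries. Across the genes, length and the log2 ratio had a Spearman rho of 0.18 in the 5-week library and 0.07 in the 7-week library.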

How the data were processed

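Libraries of total brain RNA came from a TruSeq RNA v2 kit, per the labels' protocols. Tools listed, with no role, in the submitters' processing notes are featureCounts 1.4.6-p4, STAR 2.4.1d and CASAVA 1.8.2. Which build, annotation and strand setting were used is unknown: not given in the sources used here. The authors deposited raw read counts for 26739 identifiers in 20 libraries, and an RPKM table. The deposited RPKM values were divided by 25 library totals applied in rotation down the rows, not by each library's own total. With that rotation 99.99% of the nonzero values of genes reaching an RPKM of 1 were given back within 0.0011, against 4.10% with own totals. The lengths were solved with the rotation and not solved again for own totals, so the 4.10% is not a like comparison. RPKM served only to solve gene lengths.

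Members and tests were chosen with earlier results of these data known. CPM used library totals. Replicate numbers follow accession order and pair nothing. The 10- and 14-week libraries were fitted in R 4.3.3 with edgeR 4.0.16 (TMM, filterByExpr by age, robust quasi-likelihood, Benjamini-Hochberg over 19034 genes, threshold 0.05). Standard errors were taken as the absolute log2 fold change over the root of F. On simulated counts for this comparison (18915 genes tested), edgeR called 79 of 100 genes changed 2-fold, 90 of 100 changed 4-fold, and 7 unchanged genes. The changed genes were drawn at random from all genes, with counts independent between genes. The members tested spread more (median log2 SD 0.73 against 0.22 at 14 weeks) and need not be independent of each other, so these rates do not hold for them. Alternatives were DESeq2 1.42.0, its size factors, limma-voom (limma 3.58.1), other filters, no robust step, all 20 libraries, and leaving out each library. Without symbols, at most 4 members were named: the 2 with the largest smaller ratio among those with at least 20 reads in both chosen libraries, then the 2 with the smallest p among those lower at 14 weeks. The lists of pathway genes and cell type markers need symbols and were not used. Ratios and CPM of single libraries have no replicate error.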

Additional observations from a re-analysis of the deposited data

Results flagged for a closer look

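Of 24 sets of 5 libraries (4 ages by 2 summaries of the 84 genes and 4 named genes), 13 held 1 library whose gap to the next exceeded 0.71 of the range of the 5, Dixon's limit. Of the 13, 12 lie at 5 and 7 weeks, where the genes were chosen for a high value in 1 library, so they restate the choice. Chance gives about 1 in 20 for independent sets that no choice has fixed, so this rate cannot be set against the 13. Only 1 flag lay at the older ages, which shows no clear excess over that rate. The summaries and the named genes also overlap, so the sets are not independent. At 5 weeks the gap of replicate 4 was 0.924 of the range for the geometric mean of the 84 genes and 0.961 for their share of counts. For Nfu_g_1_010210 it was 0.967, for Nfu_g_1_021892 0.943, for Nfu_g_1_006411 0.959 and for Nfu_g_1_013837 0.806. At 7 weeks the gap of replicate 2 was 0.980 for the geometric mean and 0.982 for the share of counts. It was 0.986 for Nfu_g_1_010210, 0.983 for Nfu_g_1_021892, 0.961 for Nfu_g_1_006411 and 0.969 for Nfu_g_1_013837. Outside the chosen libraries, 10-week replicate 4 stood above its group in the share of counts, at 0.0795% against 0.0564 to 0.0626%, a gap of 0.730 of the range. Its geometric mean did not pass that limit.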

How the results depend on the processing

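The number of genes that met the rule was 53 with a pseudocount of 1 and 47 with a limit of 16-fold, all of them among the 84, and 80 to 88 when each other young library was left out of the medians. The pseudocount also moved the median log2 ratio in 7-week replicate 2, from 4.35 to 3.77 with 0.5 and 3.30 with 1. Leaving out each other young library gave 5.72 to 6.39 in 5-week replicate 4 and 4.29 to 4.53 in 7-week replicate 2.

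No member was called between 14 and 10 weeks under any alternative except DESeq2, which called 1, Nfu_g_1_006411, lower (adjusted p 0.022). Its adjusted p was 0.10 to 0.9996 under the edgeR and limma-voom alternatives. The value of 0.9996 came from the edgeR fit of all 20 libraries, where the surge entered the spread of the members. The counts over all genes, 65 higher and 7 lower, were 235 and 109 with DESeq2 and 19 and 0 with all 20 libraries in the fit (edgeR), and limma-voom called 4 lower. Without each library in turn they were 48 to 225 higher and 1 to 35 lower, with both maxima without 10-week replicate 4. Fewer than 5 were called lower without 10-week replicate 1, 2 or 3 or 14-week replicate 1, 2 or 3. The causes were not tested. The median log2 fold change of the members was -0.61 to -0.23 over the same fits. The count of 80 genes above the median in 14-week replicate 2 was 79 to 80 when another 14-week library was left out, a check chosen after seeing the data. No paired analysis was made, because the labels name nothing that pairs libraries of different ages. At this depth 25 members had too few reads to be tested at 10 and 14 weeks.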
